A study of Mus musculus with 11 samples.

Results

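A set of 10 genes of MHC class I antigen processing was followed across RNA-seq libraries of mouse small intestine, with members taken by gene symbol. They are the immunoproteasome subunits Psmb8, Psmb9 and Psmb10, the peptide transporter genes Tap1 and Tap2, the loading gene Tapbp, the class I genes H2-K1, H2-D1 and B2m, and the class I regulator Nlrc5. All 10 stood among the 24294 symbols of the table. Of the 10, 9 passed the filter on low values (at least 1 FPKM in at least 3 libraries), as did 10764 symbols in all, and Nlrc5 did not. FPKM corrects a fragment count for the length of the gene and the size of the library, so levels can be compared between genes.

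Libraries were labelled HLJDD (n = 4), HFD (n = 4) and ND (n = 3), 11 in all. The initials HLJDD are those of Huang Lian Jiedu Decoction, a herbal preparation, and the study's title concerns its use in obese mice and the gut hormone gastric inhibitory polypeptide. What the mice of each group ate, how the decoction was given, and their strain, age and sex were not stated in the labels used here, nor was the stretch of small intestine. Separate animals are not named for the libraries, so a p-value here refers to spread among libraries that may be technical in origin. The libraries held 30101888 to 37943272 reads, and a gene of 1 kb at 1 FPKM rested on 30.1 to 37.9 of them. The mitochondrial share of reads was 40.7% in HLJDD replicate 2 and 32.4% in HFD replicate 1, against 10.4% to 19.3% in the other 9.

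MHC class I molecules show short peptides from the cell's own proteins to CD8 T cells. The immunoproteasome, a form of the proteasome in which Psmb8, Psmb9 and Psmb10 replace the catalytic subunits Psmb5, Psmb6 and Psmb7, cuts the proteins. The Tap1 and Tap2 products carry the peptides into the endoplasmic reticulum, where tapasin, the Tapbp product, helps to load them onto a heavy chain paired with beta-2-microglobulin. Interferons raise the transcription of these genes, and in the gut class I is made by enterocytes and by leukocytes.

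The libraries carried the markers of small intestinal epithelium, and they also differed in markers of position along the gut. All 6 enterocyte markers were present, with summed levels of 12356 to 22732 FPKM in HLJDD, 17391 to 22763 FPKM in HFD and 18761 to 26634 FPKM in ND. Fabp2 weighed most in this sum. Alpi and Lct averaged higher in HLJDD and HFD than in ND, while Fabp2, Vil1, Sis and Epcam averaged lower. The summed level of 6 genes of the distal small intestine was 242 to 424 FPKM in HLJDD, 296 to 433 FPKM in HFD and 1288 to 11632 FPKM in ND. The sum over 5 genes of the proximal small intestine was 9125 to 16295 FPKM in HLJDD, 11923 to 16253 FPKM in HFD and 529 to 4544 FPKM in ND. Fabp1 weighed most in the proximal sum, and Fabp1, Adh1 and Gata4 averaged higher in HLJDD and HFD than in ND. Slc40a1 went the other way, with means of 0.876 FPKM in HLJDD, 0.734 FPKM in HFD and 6.54 FPKM in ND. Cybrd1 stayed under 1 FPKM in every library. The ND libraries thus lay apart from the other 8 in both sums, in opposite directions, but not in every proximal gene. Fabp6, an ileal bile acid binding protein gene, was at 0.212 to 2.27 FPKM in HLJDD and 1.26 to 4.31 FPKM in HFD, against 397, 6702 and 9821 FPKM in ND. The part of gut position in the differences from ND given here was not tested.

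In HLJDD against ND, 6 of the 9 members tested were called lower, and Psmb10, B2m and H2-K1 did not pass the threshold. The 6 were Psmb8, Psmb9, Tap1, Tap2, Tapbp and H2-D1, at 0.413 to 0.628 times ND on the fitted scale of FPKM + 1. In the same comparison 7.79% of all 10764 genes were called lower and 11.9% in either direction. HFD against ND gave a smaller set of 3, Tap1, Tapbp and H2-D1, beside 11.5% of all genes called lower and 16.6% in either direction. Between HLJDD and HFD no member passed, and no gene of the table did. All calls are from limma on log2(FPKM + 1), two-sided, with Benjamini-Hochberg adjustment over the 10764 genes and a threshold of 0.05. In bulk tissue, fewer cells of a type and less RNA per cell cannot be told apart.

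**Figure D1:**
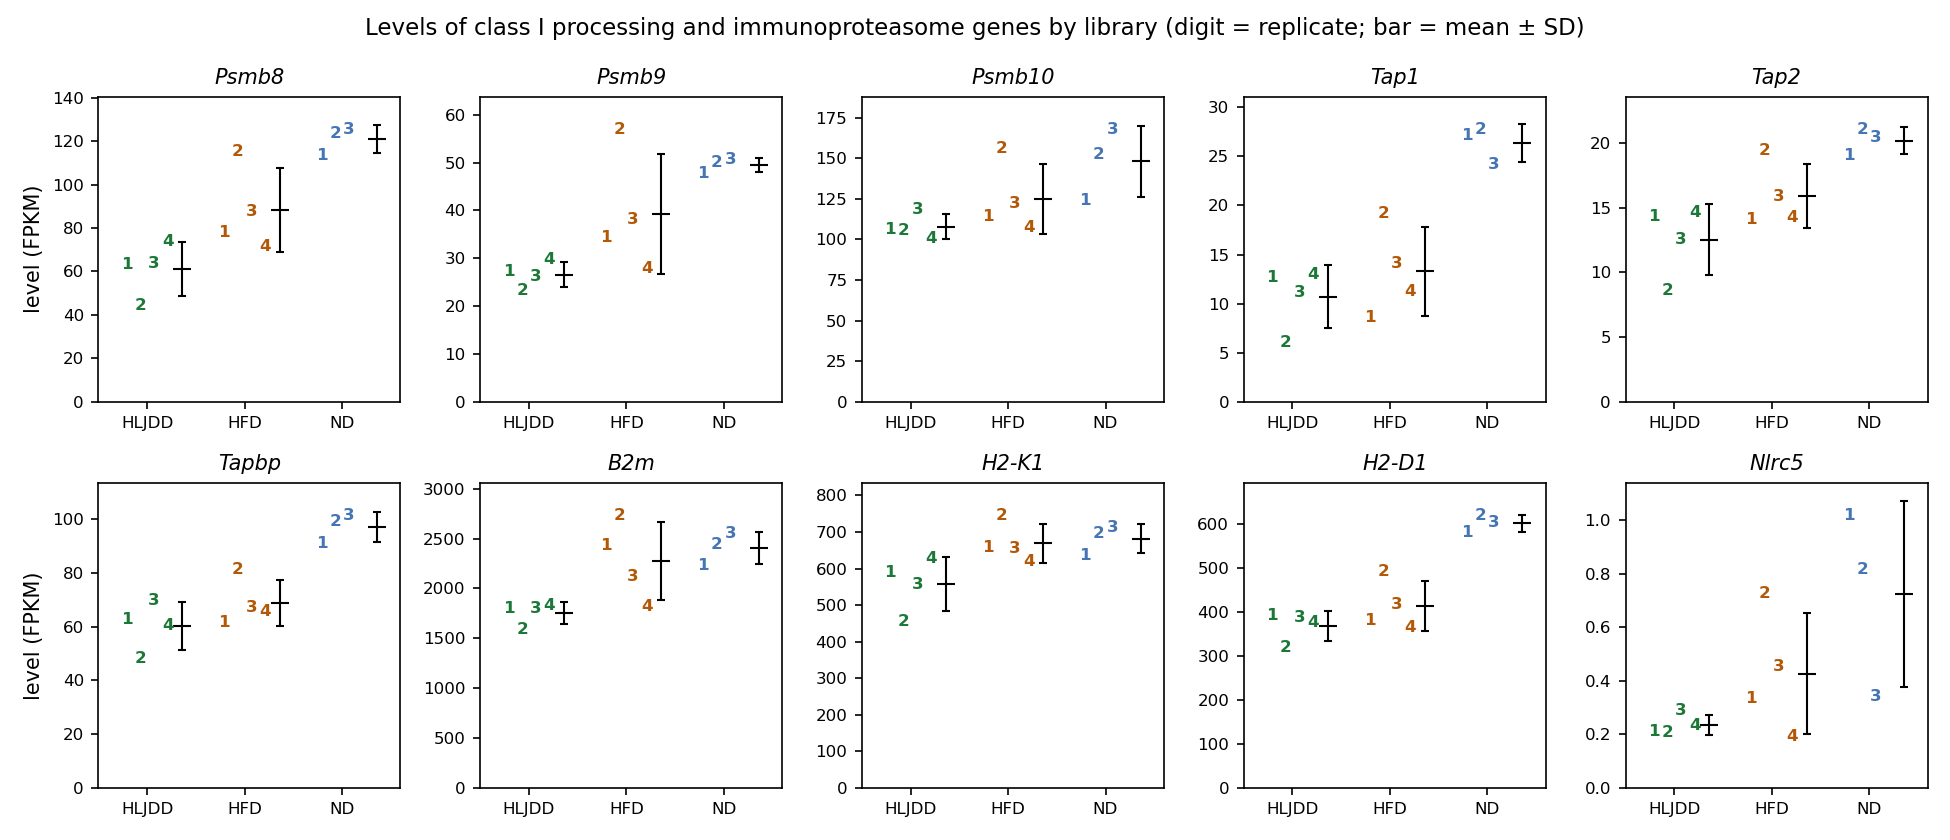
FPKM of the 10 members in each library (digit = replicate number), with the group mean and SD beside the points; HLJDD is left, HFD middle and ND right. Every HLJDD value lay below every ND value, as was also so for 21.3% of all 10764 genes tested. HFD replicate 2 was the highest HFD library for each of the 10 members.

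The immunoproteasome subunits act first in the pathway, and they differed among themselves. Psmb8, which encodes the chymotrypsin-like subunit, lies on mm10 chromosome 17 (34198195 to 34201454). Its levels were 63.3, 44.1, 63.5 and 74.0 FPKM in HLJDD replicates 1 to 4, 78.1, 115.5, 87.8 and 71.5 FPKM in HFD replicates 1 to 4, and 113.6, 123.5 and 125.5 FPKM in ND replicates 1 to 3. HLJDD lay wholly below ND, while HFD replicate 2 reached into the ND range and HFD replicate 4 into the HLJDD range. For HLJDD against ND the log2 change was -0.99 ± 0.20 (SE; limma adjusted p = 0.00758). That call held without any 1 of the 11 libraries, with adjusted p up to 0.0430. HFD against ND gave -0.47 (adjusted p = 0.107) and HLJDD against HFD gave -0.52 (adjusted p = 0.999, 95% confidence interval -0.92 to -0.12 before adjustment).

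Psmb9, the gene of the immunosubunit that takes the place of Psmb6 (chromosome 17, 34182030 to 34187330), was lower in level than Psmb8 in every library. It had 27.1, 23.3, 26.1 and 29.8 FPKM in HLJDD, 34.2, 57.0, 38.1 and 27.8 FPKM in HFD, and 47.7, 50.1 and 50.6 FPKM in ND. HFD replicate 2 was above all ND libraries, and HFD replicate 4 lay among the HLJDD libraries. HLJDD against ND gave a log2 change of -0.88 ± 0.20 (SE; limma adjusted p = 0.0153). Leaving out ND replicate 1 or 2 ended that call, with adjusted p up to 0.0682. The change was -0.37 for HFD against ND (adjusted p = 0.186) and -0.50 for HLJDD against HFD (adjusted p = 0.999).

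Psmb10, the gene of the trypsin-like immunosubunit, lies apart from the others on chromosome 8 (105935728 to 105938392). Levels were 106.0, 105.6, 118.7 and 100.7 FPKM in HLJDD, 114.2, 155.8, 122.3 and 107.5 FPKM in HFD, and 124.3, 152.1 and 167.9 FPKM in ND. The lowest ND library was close to the highest HLJDD library, and HFD spanned most of both ranges. No comparison passed the threshold. The log2 changes were -0.45 for HLJDD against ND (adjusted p = 0.0917), -0.25 for HFD against ND (adjusted p = 0.269) and -0.20 for HLJDD against HFD (adjusted p = 0.999).

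Each immunosubunit was also set against the constitutive subunit whose place it takes, as its share of the summed FPKM of the pair. Psmb8 made up 47.2% ± 2.96 of the Psmb8 and Psmb5 sum in HLJDD, 58.1% ± 5.57 in HFD and 61.7% ± 0.94 in ND (SD, n = 4, 4 and 3). By library the share was 46.5%, 45.6%, 45.1% and 51.5% in HLJDD, 63.6%, 61.5%, 55.9% and 51.3% in HFD, and 62.7%, 61.4% and 60.9% in ND. HLJDD lay wholly below ND, and only HFD replicate 4 fell within the HLJDD range. The HLJDD share minus the ND share was -14.6 percentage points, with an exact two-sided permutation p of 0.0286, the smallest that 4 against 3 libraries can give, and an adjusted p of 0.129 over the 9 share tests. HLJDD minus HFD was -10.9 points (exact permutation p = 0.0571, adjusted p = 0.171), and HFD minus ND was -3.63 points (exact permutation p = 0.4, adjusted p = 0.45).

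Psmb9 made up 20.6% ± 2.12 of the Psmb9 and Psmb6 sum in HLJDD, 26.4% ± 5.45 in HFD and 33.3% ± 0.44 in ND. Its HLJDD and ND libraries did not overlap, at 18.8% to 23.2% and 32.9% to 33.7%, and the exact permutation p was again 0.0286 (adjusted p = 0.129). For Psmb10 with Psmb7 the shares overlapped in all 3 comparisons, at 59.1% ± 4.64 in HLJDD, 64.0% ± 5.06 in HFD and 62.0% ± 3.46 in ND. None of the 9 share tests passed after adjustment. The Psmb5 level is uncertain, because 57.1% of the 50-base stretches of its longest transcript also occur in transcripts of other symbols, among them the gene model Gm3375.

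**Figure D2:**
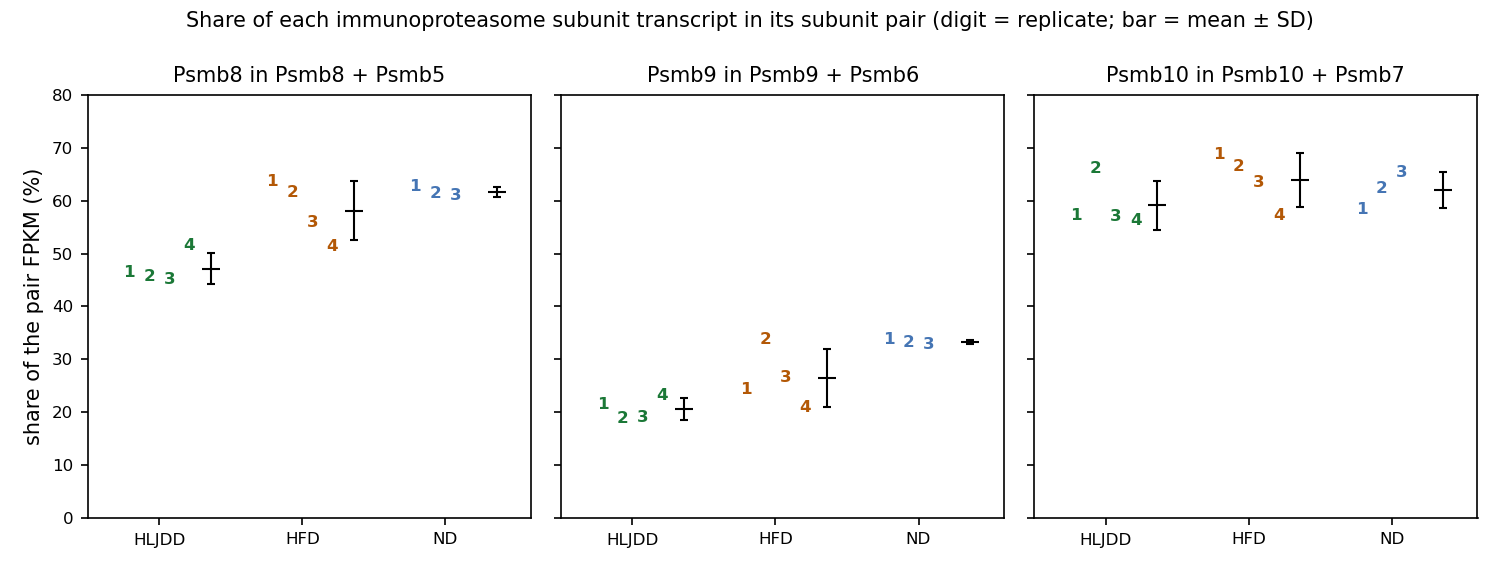
Share of each immunosubunit in the summed FPKM of its pair, in percent, for each library (digit = replicate number), with the group mean and SD; HLJDD is left, HFD middle and ND right. The Psmb8 and Psmb9 shares of the 4 HLJDD libraries lay below those of the 3 ND libraries, while those of Psmb10 overlapped.

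Tap1 encodes one chain of the peptide transporter and had the lowest log2 change of the 9 tested members against ND in both other groups, on the log2(FPKM + 1) scale. Tap1 (chromosome 17, 34187556 to 34197225) had 12.6, 6.02, 11.1 and 13.01 FPKM in HLJDD, 8.59, 19.2, 14.1 and 11.2 FPKM in HFD, and 27.1, 27.8 and 24.2 FPKM in ND. The 3 ND libraries lay above all 8 others, and HLJDD and HFD overlapped. The log2 change was -1.28 ± 0.27 for HLJDD against ND (SE; limma adjusted p = 0.0104) and -0.99 ± 0.27 for HFD against ND (adjusted p = 0.0280). HLJDD against HFD gave -0.29 (adjusted p = 0.999, 95% confidence interval -0.83 to 0.26). In the fits that left out 1 library, the HLJDD call was lost with ND replicate 1 or 2 out (adjusted p up to 0.0532) and the HFD call with HFD replicate 1, HFD replicate 4 or any ND library out (adjusted p up to 0.105). Tap1 was also the 1 member still called in HFD against ND after median-ratio scaling, at -0.76 (adjusted p = 0.0147).

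Tap2, the gene of the other chain (chromosome 17, 34204479 to 34216321), differed less. It was measured at 14.4, 8.62, 12.6 and 14.6 FPKM in HLJDD, at 14.1, 19.5, 15.9 and 14.2 FPKM in HFD, and at 19.1, 21.1 and 20.4 FPKM in ND. HFD replicate 2 lay inside the ND range, and the other HFD libraries lay below it. The log2 change was -0.67 ± 0.18 for HLJDD against ND (SE; limma adjusted p = 0.0302), a call that was lost when ND replicate 1, 2 or 3 was left out (adjusted p up to 0.123). Neither HFD against ND (-0.34, adjusted p = 0.185) nor HLJDD against HFD (-0.34, adjusted p = 0.999) passed.

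The ratio of the transporter genes was examined after their values had been seen, so it is given without a test. Tap1 stood at 0.699 to 0.889 times the level of Tap2 in HLJDD and at 0.609 to 0.987 times in HFD, against 1.18 to 1.42 times in ND. The Tap1 level was therefore above that of Tap2 in each ND library and below it in the other 8.

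Psmb9 and Tap1 lie head to head and share 1 stretch of promoter DNA, which is printed because both genes were called lower in HLJDD against ND. From the RefSeq promoter windows of build GRCm38.p6, the stretch of 225 bases between their starts is chr17:34187331-34187555, read on the plus strand toward Tap1. Capitals mark a CCAAT, the letters of the Y box, near the Psmb9 start and a TGACG, a CREB-type half-site, farther toward Tap1.
Psmb9-Tap1: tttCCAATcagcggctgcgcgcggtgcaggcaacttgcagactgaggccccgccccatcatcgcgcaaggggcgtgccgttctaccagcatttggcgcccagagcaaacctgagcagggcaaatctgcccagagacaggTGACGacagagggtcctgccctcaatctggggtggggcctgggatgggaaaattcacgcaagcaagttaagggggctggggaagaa
Psmb8 begins downstream of Tap1 and is followed by Tap2, so these 4 genes are neighbours on chromosome 17. Each of the 4 was called lower in HLJDD against ND, beside 7.79% of all genes. In HFD against ND Tap1 alone of them was called, beside 11.5% of all genes called lower. Tapbp and H2-D1, elsewhere on chromosome 17, were called lower in both comparisons, and H2-K1 on the same chromosome was not. The part of position on the chromosome was not tested.

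Tapbp encodes tapasin, which bridges the transporter and the class I heavy chain (chromosome 17, 33919478 to 33929290). Its levels were 62.8, 48.3, 69.7 and 60.4 FPKM in HLJDD, 61.6, 81.3, 67.1 and 65.8 FPKM in HFD, and 90.9, 99.2 and 101.4 FPKM in ND. All ND libraries lay above the other 8, which overlapped. The log2 change was -0.69 ± 0.15 for HLJDD against ND (SE; limma adjusted p = 0.0126) and -0.49 ± 0.15 for HFD against ND (adjusted p = 0.0439). Leaving out ND replicate 2 ended the HLJDD call (adjusted p = 0.0677). The HFD call was lost when HLJDD replicate 1 or 4, HFD replicate 1, 3 or 4, or any ND library was left out (adjusted p up to 0.150), and after median-ratio scaling (-0.25, adjusted p = 0.0945).

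Among the class I chains, H2-D1 was called and H2-K1 and B2m were not. H2-D1, a classical heavy chain gene (chromosome 17, 35263094 to 35267497), had 392.1, 318.8, 388.1 and 377.3 FPKM in HLJDD, 381.1, 491.2, 417.9 and 364.3 FPKM in HFD, and 580.0, 619.8 and 604.9 FPKM in ND. The groups HLJDD and HFD overlapped, and ND lay above both. The log2 change was -0.71 ± 0.15 for HLJDD against ND (SE; limma adjusted p = 0.00993) and -0.55 ± 0.15 for HFD against ND (adjusted p = 0.0270). Leaving out ND replicate 2 ended the HLJDD call here too (adjusted p = 0.0597). For HFD the call was lost without HFD replicate 1, 3 or 4 or any ND library (adjusted p up to 0.116) and after median-ratio scaling (-0.30, adjusted p = 0.110).

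H2-K1, the other classical heavy chain gene measured here (chromosome 17, 33996012 to 34000619), stood at 589.0, 454.6, 555.7 and 626.7 FPKM in HLJDD, at 658.4, 745.2, 655.0 and 620.1 FPKM in HFD, and at 636.4, 695.7 and 712.8 FPKM in ND. HFD spanned the ND range, and HLJDD lay below ND by a small gap. The log2 change was -0.30 for HLJDD against ND (limma adjusted p = 0.208), -0.27 for HLJDD against HFD (adjusted p = 0.999) and -0.03 for HFD against ND (adjusted p = 0.903, 95% confidence interval -0.35 to 0.30). B2m, whose product is the shared light chain (chromosome 2, 122147687 to 122153082), was the most abundant member. It had 1794, 1585, 1796 and 1831 FPKM in HLJDD, 2426, 2732, 2124 and 1819 FPKM in HFD, and 2234, 2442 and 2550 FPKM in ND. HFD spanned the ND range, and HLJDD lay below ND. Its log2 change was -0.46 for HLJDD against ND (limma adjusted p = 0.0962), -0.10 for HFD against ND (adjusted p = 0.681) and -0.36 for HLJDD against HFD (adjusted p = 0.999). For HFD against ND the sign of both H2-K1 and B2m turned after median-ratio scaling, to 0.22 and 0.15, and neither was called.

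The ratio of the heavy chain genes was also taken after the values were seen and carries no test. H2-K1 stood at 1.43 to 1.66 times the H2-D1 level in HLJDD and 1.52 to 1.73 times in HFD, against 1.10 to 1.18 times in ND. The ND libraries were thus lowest in this ratio and highest in the transporter ratio. Levels of H2-D1 and H2-K1 are uncertain to the extent that reads from near-identical class I genes were split or merged in counting. Of the 50-base stretches in their longest GENCODE transcripts, 14.3% for H2-D1 and 8.11% for H2-K1 also occur in transcripts of other genes. The figure was 0% for Psmb8, Psmb9, Psmb10, B2m and Nlrc5, 0.647% for Tap1, 0.737% for Tap2 and 2.00% for Tapbp.

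**Figure D3:**
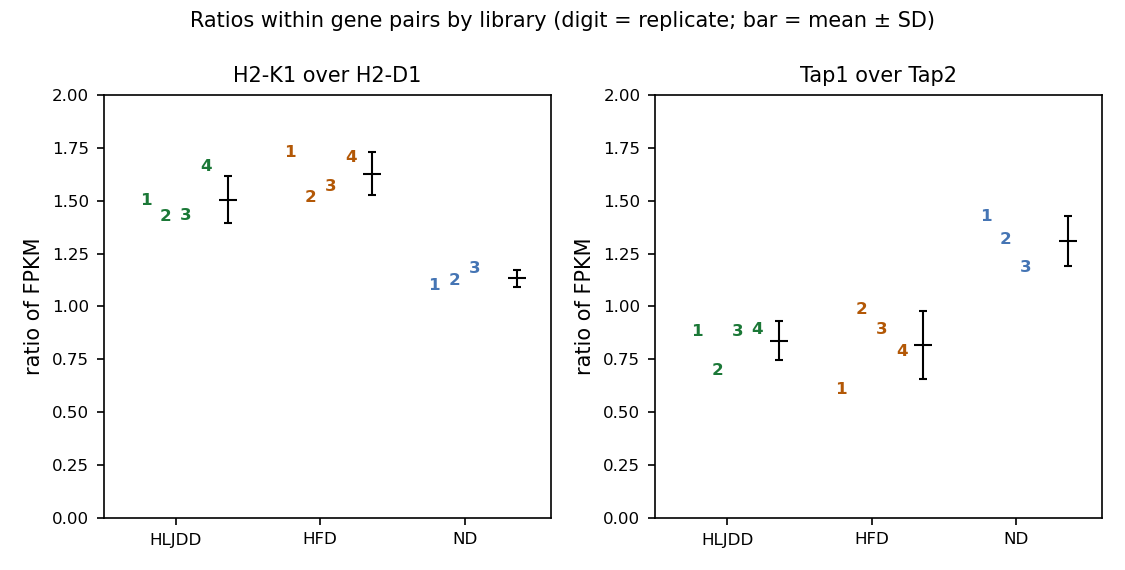
Ratio of FPKM within each library of H2-K1 over H2-D1 (left) and of Tap1 over Tap2 (right), with digits for replicates and the group mean and SD. In ND the heavy chain ratio was 1.10 to 1.18 and the transporter ratio 1.18 to 1.42, outside the ranges of HLJDD and HFD in both panels.

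The upstream DNA of the class I chains is printed to show how alike the 2 heavy chain genes are although their log2 changes differed in size. Each line holds 30 bases of the RefSeq promoter window (GRCm38.p6), 5′ to 3′ on the gene's strand, for H2-K1 at chr17:34000430-34000459 (minus), H2-D1 at chr17:35262922-35262951 (plus) and B2m at chr2:122147549-122147578 (plus). Capitals mark letters that match the kappaB consensus or an interferon regulatory factor motif, AANNGAAA, on either strand.
H2-K1: tGGGGATTCCCCatctccacagTTTCACTT
H2-D1: tGGGGATTCCCCatctcctcagTTTCACTT
B2m: aAACTGAAAatgGGAAAGTCCCtttgtaac
The H2-K1 and H2-D1 stretches differ at 1 of 30 positions, and in B2m the motifs stand in the reverse order. Promoter windows were found for 8 of the 10 members, without Tap2 and Nlrc5, and 250 bases before each start were searched on both strands. The kappaB consensus occurred in B2m, H2-K1 and H2-D1, 3 of the 8, and in 7.25% of 32851 windows, and the interferon regulatory factor letters occurred in the same 3 and in 21.3% of windows. TGACG occurred in 5 of the 8 (Psmb9, Tap1, B2m, H2-K1 and H2-D1) and in 17.8% of windows, and CCAAT in these and Tapbp and in 33.8%. A STAT-type motif, TTCNNNGAA, occurred in Psmb8, 97 bases before its start, and in 7.02% of windows. The motif letters were chosen with these sequences in view, and the matches are a description of the DNA.

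Nlrc5 encodes a transactivator that is recruited to class I promoters, and it was the lowest member. Nlrc5 (chromosome 8, 94434335 to 94527272) had 0.211, 0.206, 0.290 and 0.233 FPKM in HLJDD, 0.333, 0.726, 0.453 and 0.193 FPKM in HFD, and 1.02, 0.817 and 0.340 FPKM in ND. These values rest on 49 to 87 reads in HLJDD, 57 to 194 in HFD and 100 to 284 in ND. HLJDD lay below ND, with ND replicate 3 close to it, and HFD overlapped both. In a fit without the filter, over all 24294 symbols, the log2 change was -0.46 for HLJDD against ND (limma adjusted p = 0.116), -0.27 for HFD against ND (adjusted p = 0.305) and -0.20 for HLJDD against HFD (adjusted p = 1). On whole reads, limma-voom gave -1.48 for HLJDD against ND (adjusted p = 0.0701), -0.78 for HFD against ND (adjusted p = 0.228) and -0.69 for HLJDD against HFD (adjusted p = 0.999), on a scale to which no 1 FPKM is added.

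**Figure D4:**
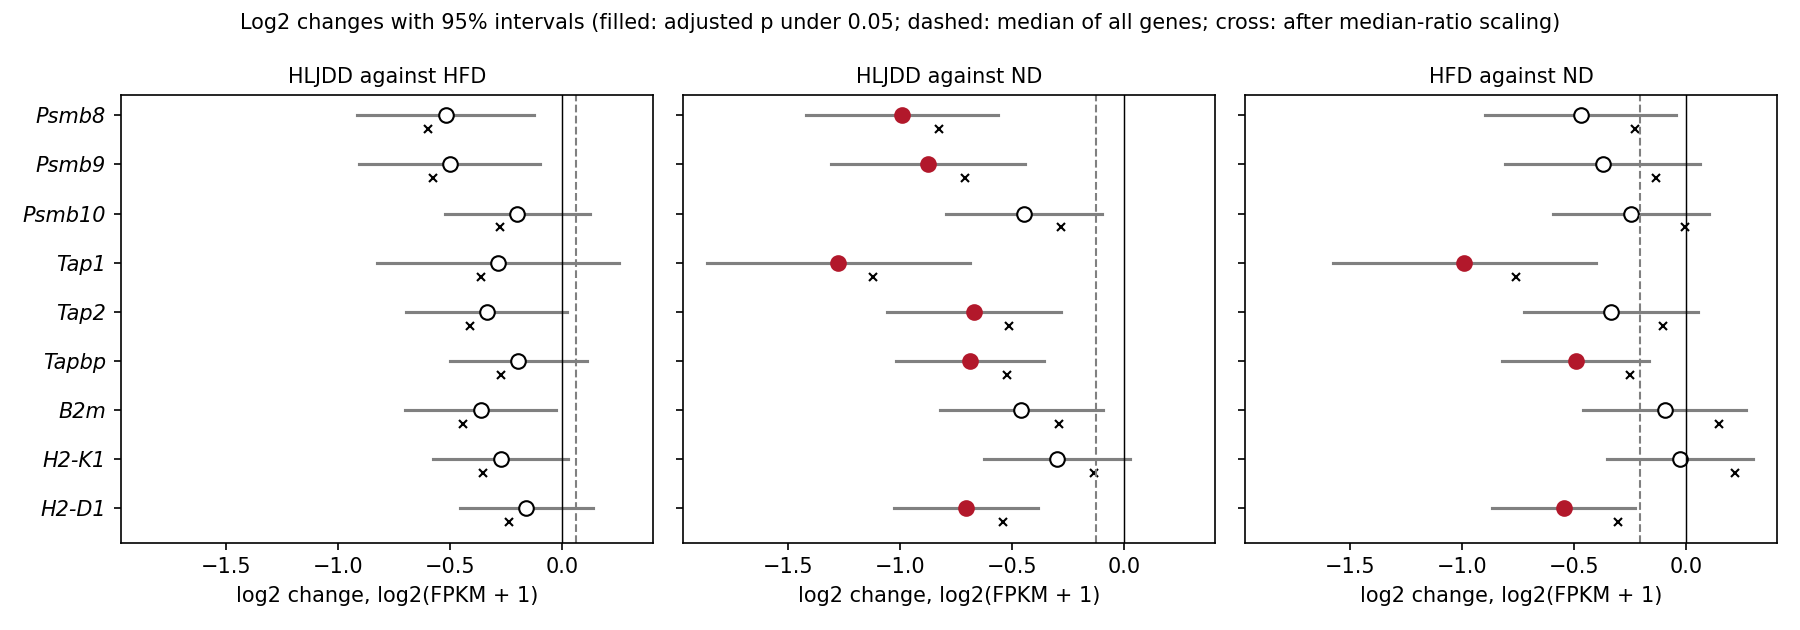
Fitted log2 change of each of the 9 tested members with its 95% confidence interval, in HLJDD against HFD, HLJDD against ND and HFD against ND; filled points were called, crosses are values after median-ratio scaling, and the dashed line is the median of all genes tested. In HLJDD against ND the changes ran from -1.28 (Tap1) to -0.30 (H2-K1), and in HFD against ND from -0.99 (Tap1) to -0.03 (H2-K1).

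The order of levels was alike across the groups except among neighbours. B2m was highest, followed by H2-K1, H2-D1 and Psmb10, and Nlrc5 was lowest. In HLJDD, Psmb8 at 61.2 ± 12.5 FPKM and Tapbp at 60.3 ± 8.93 FPKM did not differ beyond their spread. Tap1 averaged 10.7 ± 3.22 FPKM and Tap2 12.5 ± 2.77 FPKM in HLJDD, and although these ranges overlapped, Tap1 was the lower of the pair in each of the 4 libraries. In ND, Psmb10 at 148.1 ± 22.1 FPKM and Psmb8 at 120.9 ± 6.40 FPKM overlapped, while Tap1 at 26.4 ± 1.90 FPKM was above Tap2 at 20.2 ± 1.03 FPKM.

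Between HLJDD and HFD, 0 of the 9 members and 0% of all genes were called by limma, and limma-voom on whole reads also called 0. At an unadjusted p under 0.05 there were 3 members, Psmb8, Psmb9 and B2m, and 186 of 10764 genes. All 9 log2 changes were below 0, with a median of -0.29 beside 0.06 for all genes, and -0.36 beside -0.00 after median-ratio scaling. Without HLJDD replicate 2 the members' median was -0.18, and the Tap1 change was -0.058, against -0.29 with it. Of all genes, 0.409% had a lower log2 change than Psmb8 and 0.446% a lower one than Psmb9. HLJDD was lower without overlap for 0 of the 9 members and for 0.548% of all genes. HFD replicate 4 lay within the HLJDD range for each of the 9.

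For HLJDD against ND the median log2 change of the 9 members was -0.69, beside -0.13 for all genes, and -0.52 beside 0.00 after median-ratio scaling. After that scaling the 6 had adjusted p-values of 0.003002 to 0.0296, and the other 3 of 0.279 to 0.538. In this comparison 9 of 9 members were lower without overlap between the groups, as were 21.3% of all genes. The library totals behind FPKM include mitochondrial reads, which made up 40.7% in HLJDD replicate 2 and 14.4% in ND replicate 1. Whether the groups stay apart with mitochondrial reads left out of the totals was not tested. For HFD against ND the median was -0.37, beside -0.20 for all genes, and -0.13 beside -0.01 after scaling. Here 3 of 9 members were lower without overlap, beside 32.9% of all genes. Both comparisons use the same 3 ND libraries, and the number of members called rested on them: without ND replicate 1, 2 or 3 it was 3, 1 and 5 for HLJDD against ND and 0 each time for HFD against ND. For HFD against ND it was also 0 without HFD replicate 1 or 4, 1 without HFD replicate 3 and 5 without HFD replicate 2, where the members' median was -0.57. With HFD replicate 1 and HLJDD replicate 2, the libraries of highest mitochondrial share, left out together, it was 6 for HLJDD against ND and 3 for HFD against ND.

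The rest of the pathway was described from lists of named genes. Of 9 genes of chaperones, peptide trimming, proteasome assembly and the PA28 proteasome activator (Psme1 to Psme3), Canx alone was called, lower in both comparisons with ND. Of all genes, 7.79% were called lower in HLJDD against ND and 11.5% in HFD against ND. The 1 of 9 is thus a share near that of all genes. Canx encodes calnexin, a chaperone of newly made heavy chains, and averaged 68.4 ± 34.2 FPKM in HLJDD and 49.8 ± 19.03 FPKM in HFD, against 170.7 ± 12.03 FPKM in ND. Its log2 change was -1.46 ± 0.43 for HLJDD against ND (SE; limma adjusted p = 0.0454) and -1.86 ± 0.43 for HFD against ND (adjusted p = 0.0132). The HLJDD call was lost in all fits without 1 library but those without HLJDD replicate 3 or HFD replicate 1 (adjusted p up to 0.161), and the HFD call without ND replicate 1 or 2 (adjusted p up to 0.0622). Calr, the calreticulin gene of the loading complex, averaged 201.3 ± 57.4 FPKM in HLJDD and 184.5 ± 51.6 FPKM in HFD, against 314.8 ± 8.11 FPKM in ND, and did not pass (adjusted p = 0.120 and 0.0583). Tapbpl, a tapasin relative, had log2 changes of -0.52 and -0.61 and did not pass either. The list's median was -0.46 for HLJDD against ND and -0.47 for HFD against ND.

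None of the 3 constitutive catalytic subunits was called in any comparison. Psmb6 averaged 102.6 ± 6.19 FPKM in HLJDD, 107.0 ± 3.17 FPKM in HFD and 99.2 ± 4.94 FPKM in ND, and Psmb7 averaged 75.3 ± 15.00 FPKM in HLJDD, 70.4 ± 13.1 FPKM in HFD and 89.9 ± 1.78 FPKM in ND. Among 11 other genes of the proteasome core, 1 was called lower in HLJDD against ND (Psma1, -0.55, limma adjusted p = 0.0474) and 2 in HFD against ND (Psma1, -0.60, adjusted p = 0.0286, and Psma6, -0.67, adjusted p = 0.0273). Psma3 was at -0.45 and -0.48 and did not pass. Of 17 genes of the regulatory cap, 1 was lower in HLJDD against ND (Psmc6, an ATPase subunit gene, -0.58, adjusted p = 0.0249) and 4 in HFD against ND (Psmc6, Psmd2, Psmd3 and Psmd7, from -0.57 to -0.96). Beside these, 7.79% of all genes were called lower in HLJDD against ND and 11.5% in HFD against ND, so 1 of 11 core and 1 of 17 cap genes in HLJDD against ND is a share near that of all genes. No core or cap gene was called higher, and each of these calls was lost without ND replicate 1 and without ND replicate 2 (adjusted p up to 0.166). The median of the cap list was -0.38 for HLJDD against ND and -0.52 for HFD against ND.

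The other class I genes were mixed. Of 11 tested, 3 were called lower and 0 higher in HLJDD against ND, beside 7.79% and 4.1% of all genes. In HFD against ND 2 were called lower and 1 higher, beside 11.5% and 5.06% of all genes. The list's median was 0.07 for HLJDD against ND and 0.12 for HFD against ND, beside -0.13 and -0.20 for all genes. H2-Q2 averaged 469.0 FPKM in HLJDD, 536.7 FPKM in HFD and 384.5 FPKM in ND. H2-Q1 averaged 59.6 FPKM in HLJDD, 64.0 FPKM in HFD and 49.2 FPKM in ND. H2-T23, which encodes the nonclassical molecule Qa-1, was at 123.4 ± 26.7 FPKM in HLJDD and 153.9 ± 31.8 FPKM in HFD, against 268.7 ± 18.7 FPKM in ND. Its log2 change was -1.14 ± 0.20 for HLJDD against ND (SE; limma adjusted p = 0.00426), a call that held without any 1 library, and -0.82 for HFD against ND (adjusted p = 0.0189), a call lost without any ND library (adjusted p up to 0.0786). H2-T22 was lower in both, by -0.75 and -0.65 (adjusted p = 0.00464 and 0.00790), and both calls held without any 1 library. H2-Q4 was at -0.79 for HLJDD against ND (adjusted p = 0.0239) and at -0.57 for HFD against ND (adjusted p = 0.0679), and HLJDD against HFD was not called for it. H2-Q10 went the other way in HFD against ND, at 2.44 (adjusted p = 0.0287), beside 5.06% of all genes called higher, and missed the threshold in HLJDD against ND at 2.22 (adjusted p = 0.0501). Leaving out HFD replicate 1, 3 or 4 or any ND library ended the H2-Q10 call, and ND replicate 1, 2 or 3 or HLJDD replicate 1 or 4 that of H2-Q4. The H2-Q10 level averaged 22.7 ± 12.9 FPKM in the 4 HFD libraries, against 2.78 ± 0.52 FPKM in ND. These genes have near-identical copies, so their single values are uncertain.

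Among genes that regulate class I transcription, more were called lower than higher. Of 25 tested, 1 was called higher and 7 lower in HLJDD against ND, beside 4.1% and 7.79% of all genes. In HFD against ND 2 were called higher and 7 lower, beside 5.06% and 11.5% of all genes. The 1 of 25 called higher in HLJDD against ND is a share near that of all genes. Irf7, Stat2, Stat3, Socs1, Socs3 and Nfyb were among the lower ones in each of the comparisons, which share the ND libraries. Irf7, an interferon regulatory factor gene, averaged 41.4 ± 4.45 FPKM in HLJDD and 46.3 ± 7.28 FPKM in HFD, against 89.5 ± 7.70 FPKM in ND, with log2 changes of -1.10 (limma adjusted p = 0.00104) and -0.94 (adjusted p = 0.00181). After median-ratio scaling the HFD call was lost (-0.70, adjusted p = 0.0537). Socs1, a feedback inhibitor of interferon signalling, was at 0.623 ± 0.242 FPKM in HLJDD, 1.33 ± 0.359 FPKM in HFD and 3.34 ± 0.304 FPKM in ND, a level resting on 21 to 181 reads. Its log2 change for HLJDD against ND was -1.43 ± 0.15 (SE; adjusted p = 0.000320).

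Ifnar2, which encodes a chain of the type I interferon receptor, was higher in both, at 3.54 ± 0.630 FPKM in HLJDD and 4.57 ± 0.407 FPKM in HFD, against 1.67 ± 0.399 FPKM in ND. The log2 change was 0.77 (limma adjusted p = 0.00646) and 1.07 (adjusted p = 0.000933). The calls of Ifnar2, Irf7 and Socs1 held without any 1 library. Rfxank, which encodes a partner of Rfx5, was the other gene called higher in HFD against ND, at 0.49 (adjusted p = 0.0292, lost without HFD replicate 1 or 3 or ND replicate 1 or 2). Irf1, a direct activator of Psmb9, Tap1 and other class I genes, was not called (-0.40 and -0.18). Neither was Rfx5, a subunit gene of the complex that binds class I promoters (0.18 and 0.23). The medians of the regulator list, -0.16 and -0.18, were close to those of all genes.

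**Figure D5:**
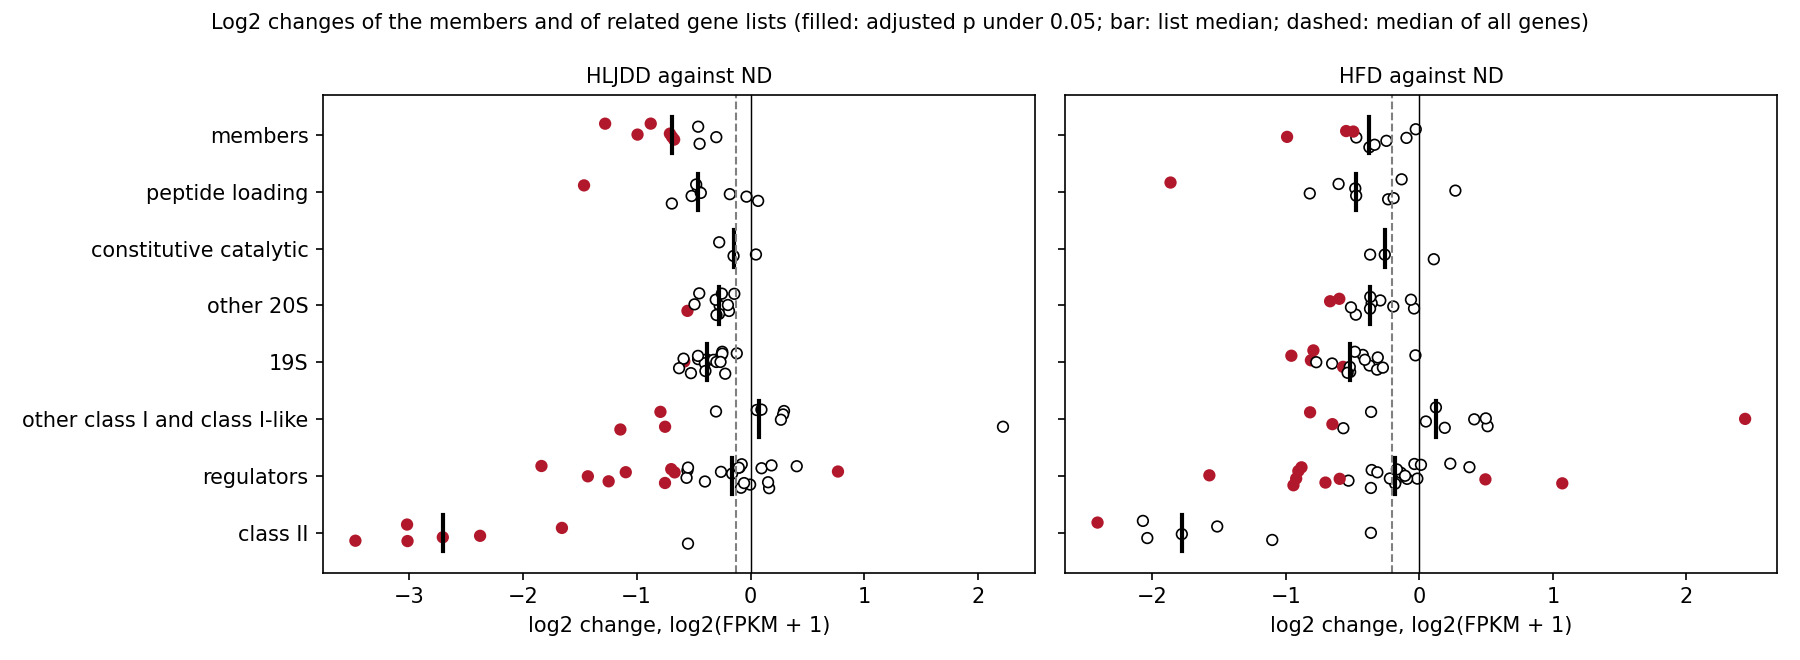
Log2 change of each tested member and pathway list gene (rows; 20S is the proteasome core, 19S its cap) in HLJDD against ND (left) and HFD against ND (right); filled points were called, bars are list medians and the dashed line is the median of all genes tested. The class II list had the lowest median in both panels, -2.70 in HLJDD against ND and -1.78 in HFD against ND.

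No gene of any list was called in HLJDD against HFD. The class II list had the lowest medians of the pathway lists in HLJDD against ND and HFD against ND. It holds genes of peptide presentation to CD4 T cells and Ciita, which also stands in the regulator list. Ciita averaged 1.51 FPKM in HLJDD, 2.01 FPKM in HFD and 2.50 FPKM in ND. Of the 7 genes in the class II list, 6 were called lower in HLJDD against ND, beside 7.79% of all genes. In HFD against ND 1 of 7, H2-DMb1, was called lower, beside 11.5% of all genes. H2-DMb1 averaged 6.76 ± 3.61 FPKM in HLJDD and 19.3 ± 18.4 FPKM in HFD, against 77.8 ± 2.89 FPKM in ND, with log2 changes of -3.47 ± 0.59 (SE; limma adjusted p = 0.00340) and -2.41 ± 0.59 (adjusted p = 0.0181). H2-Ab1 was at 20.5 to 115.8 FPKM in HLJDD, 34.3 to 328.3 FPKM in HFD and 473.1 to 546.4 FPKM in ND, and H2-DMa changed by -1.66 (adjusted p = 0.0199) in HLJDD against ND. Among the class II calls, that of H2-DMb1 in HLJDD against ND held without any 1 library, and the rest were lost without ND replicate 1 or 2. HFD replicate 2 was again the highest HFD library for H2-DMb1 and H2-Ab1, and HLJDD replicate 2 the lowest HLJDD library.

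Genes nearest in pattern were found by the root mean square distance between standardized log2(FPKM + 1) values and the mean standardized profile of the 9 members over the 11 libraries. Among 5909 genes with a mean of at least 5 FPKM, whose median distance was 1.07 SD, the nearest were H2-T23 (0.269), H3f3a (0.310), H2-DMb1 (0.314), Vmp1 (0.316), Stx7 (0.320), H2-Ab1 (0.323), Crim1 (0.330) and Pdcl (0.330). Of the 8, 3 are histocompatibility genes. The members' own distances, to a profile that includes them, ran from 0.125 for Psmb8 to 0.463 for H2-K1. The profile was lowest in HLJDD replicate 2, at -1.79, and HFD replicate 2, at 1.08, lay among the ND libraries at 0.81 to 1.34. These distances describe libraries that share the contrast with ND.

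Calls among the markers of other cell types were few apart from the adipocyte list. Of all genes, 4.1% were called higher in HLJDD against ND and 5.06% in HFD against ND. The summed level of the 9 T and intraepithelial lymphocyte markers in the table was 11.7 to 25.7 FPKM in HLJDD, 18.1 to 35.2 FPKM in HFD and 18.6 to 25.7 FPKM in ND, and 0 of 6 tested were called in any comparison. Cd3e averaged 0.373 ± 0.118 FPKM in HLJDD, 0.525 ± 0.298 FPKM in HFD and 0.712 ± 0.248 FPKM in ND. By group mean, Gzma, Cd3g, Cd8a, Cd3e and Itgae were lowest in HLJDD and highest in ND, while Cd3d, Cd8b1, Gzmb and Ptprc were not. Ptprc, a marker of all leukocytes that is counted in the T and intraepithelial sum, was at 0.979 to 8.51 FPKM in HLJDD, 1.22 to 14.0 FPKM in HFD and 2.00 to 3.95 FPKM in ND. Within HFD, replicate 2 was highest and replicate 4 lowest in this gene, and among the members HFD replicate 2 was highest in all 10 and HFD replicate 4 lowest in 7. The 6 B and plasma cell markers summed to 112 to 296 FPKM in HLJDD and 125 to 278 FPKM in HFD, against 37.8 to 64.6 FPKM in ND. Of these 6, 0 were called in HLJDD against ND and 1, Mzb1, was called higher in HFD against ND, while after median-ratio scaling 1 and 3 were called higher. The 8 macrophage and dendritic cell markers summed to 16.4 to 84.2 FPKM in HLJDD, 16.1 to 79.7 FPKM in HFD and 19.1 to 24.7 FPKM in ND, with 0 of 5 tested called in either comparison as deposited and 1 called higher in each after scaling. Adipocyte markers, 3 in all, summed to 10.2 to 23.9 FPKM in HLJDD and 1.59 to 10.3 FPKM in HFD, against 1.26 to 2.35 FPKM in ND, and all 3 were called higher in HLJDD against ND and 0 in HFD against ND. No listed marker in the table was at 0 in a whole group, and the part of these cells in the member differences was not tested.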

How the data were processed

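RNA-seq libraries of mouse small intestine were grouped by their titles into HLJDD (n = 4), HFD (n = 4) and ND (n = 3). Total RNA was taken with TRIzol and libraries made with a VAHTS kit, per the labels' protocols. The authors deposited FPKM values, 1 per gene symbol and library. Per the submitters' processing notes, fastp, HISAT2, HTSeq and R 3.2.0 were used with the mm10 genome, and the annotation, strand setting and other versions are not stated there. Without a strand setting, reads of overlapping or antisense genes cannot be told apart.

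Whole reads were recovered from the FPKM steps for depth and for limma-voom: 24279 of 24294 symbols (99.94%) had a whole length within a tolerance of 0.01, and no value was farther than 0.0017 reads from a whole number. The filter on low values, 1 FPKM or more in 3 or more libraries, kept 10764 genes. The main test was limma 3.58.1 in R 4.3.3 on log2(FPKM + 1), fitted once to the 11 libraries with a trended variance prior and no covariates, two-sided, with Benjamini-Hochberg adjustment over the genes kept and a threshold of 0.05. A fold on this scale understates the change of low genes. The fit was also run on simulated counts with the same dispersion for every gene and no difference in mitochondrial share. That run does not measure the error rate of the fit in these libraries. Shares of subunit pairs were compared by exact two-sided permutation tests, adjusted over 9 tests. Alternatives were a pseudocount of 0.1, other filters and scalings, robust and weighted fits, fits restricted to the groups of each comparison, limma-voom, a replicate block, and leaving out libraries. Replicate numbers were not used as pairs in the main fit. Correlations of same-numbered deviations ran from -0.264 to 0.339, which does not settle whether the numbers pair the samples.

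The members, lists and alternatives were chosen with earlier results of these data known. Named genes are the 10 members, up to 3 kept genes with the smallest adjusted p in HFD against ND from each pathway list, and the 8 genes nearest in pattern. Fabp6, Ptprc and Cd3e were added for context. Genes of up to 5 called in a list, Mzb1, Stat2, Stat3, Socs3, Nfyb, Irf1, Rfx5, H2-Q1, H2-Q2 and Ciita were named after their values were seen. Positions and promoter windows come from RefSeq tables of GRCm38.p6, the assembly of mm10. An item withheld for evaluation is not reported here.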

Additional observations from a re-analysis of the deposited data

Results flagged for a closer look

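Gene levels, subunit shares and gene ratios were checked within HLJDD and within HFD, and ND was not checked. In 3 of 30 checks, 1 library of a group stood far from the other 3, and chance gives about 1 in 20. The checks reuse the same genes and libraries, so they are not independent. All 3 flagged values concern HLJDD replicate 2, the library with the highest mitochondrial share of reads (40.7%). B2m was at 1585 FPKM in that library, below the 1794 to 1831 FPKM of the other HLJDD libraries. The share of Psmb10 in the Psmb10 and Psmb7 sum was 66.1% there, above 56.3% to 57.3% in the others. The ratio of Tap1 to Tap2 was 0.699 there, below 0.880 to 0.889 in the others. The part of the mitochondrial share in these values was not tested.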

How the results depend on the processing

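Over 24 alternative settings, 583 of 648 member values kept their direction and their side of the threshold, 41 lost a call, 17 gained one and 7 changed sign. The sign changes were all of B2m or H2-K1 in HFD against ND: 0.15 and 0.22 after median-ratio scaling, and 0.014 and 0.13 after that scaling with HFD replicate 1 and HLJDD replicate 2 left out, an alternative chosen after seeing the data. Leaving out 1 library at a time, these changes ran from -0.19 to 0.0056 for B2m and from -0.079 to 0.0088 for H2-K1.

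For HFD against ND, 3 members were called. The count was 1 without the filter on low values, 1 after median-ratio scaling, 8 with library weights and 0 to 5 over the fits without 1 library. For HLJDD against HFD, library weights gave 5 members against 0. For HLJDD against ND the 6 calls became 1 to 6 over the fits without 1 library. The share tests gave 0 pairs past the threshold in each setting run, the replicate block included. With so few libraries the exact test has little or no room to pass after adjustment, so this count says nothing about stability.

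With the replicate number as a block, 0 members were called in HFD against ND and 4 in HLJDD against ND, and the calls over all genes were 1080 and 724. Of 10 pairs of same-numbered libraries, 3 had a correlation above 0.1. Correlations of different-numbered libraries ran from -0.609 to 0.53, so this check cannot decide whether the numbers pair the samples.

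Over all genes, HFD against ND called 1786. This became 2695 after median-ratio scaling (1351 higher and 1344 lower, against 545 and 1241 as deposited), 2804 after quantile normalization, 7702 with library weights, 3352 without HFD replicate 1 and HLJDD replicate 2, 2952 with median-ratio scaling as well, and 664 to 3317 without 1 library. HLJDD against ND called 1279, which became 2074 (1011 higher and 1063 lower, against 441 and 838), 2297, 7082, 2575 and 2636 under the same settings, and 470 to 1696 without 1 library. HLJDD against HFD called 0, which became 3807 with library weights, 1 without HFD replicate 1 and HLJDD replicate 2, and 0 to 1 without 1 library. The cause of these differences was not tested. Low depth limits Nlrc5, at 49 to 284 reads.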
